A study of Rattus norvegicus and Mus musculus with 251 samples.

Results

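Oxidative phosphorylation is the last stage of cellular respiration, in which 4 enzyme complexes of the inner mitochondrial membrane pass electrons to oxygen and pump protons, and complex V, the ATP synthase, uses the proton gradient to make ATP. Complexes I, III, IV and V are mosaics of subunits from 2 genomes: most subunits are encoded in the nucleus and imported, and 13 hydrophobic core subunits are encoded by mitochondrial DNA. Complex II, succinate dehydrogenase, is wholly nuclear. Neurons depend on this pathway for most of the ATP that ion pumping and synaptic transmission consume. The RNA of 98 genes named after these subunits, each assigned to a complex by its symbol alone, was followed in the brains of mice that drank morphine or saline. They were found by symbol among the protein-coding rows of the mouse count table (Ndufa, Ndufb, Ndufc, Ndufs, Ndufv, Uqcr, Cox4i, Cox5 to Cox8, Atp5, Sdha to Sdhd and the mt- subunit genes, without the Ndufaf assembly factors). The table has 46078 gene rows, of which 21519 are protein-coding. Of the members, 85 are nuclear (36 of complex I, 4 of complex II, 8 of complex III, 20 of complex IV, Ndufa4 and Ndufa4l2 included, and 17 of complex V) and 13 are mitochondrial (7 of complex I, 1 of complex III, 3 of complex IV and 2 of complex V).

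The 62 libraries came from C57BL6J mice of both sexes, and each is from a 0.5 mm punch of the prefrontal cortex (PFC, 30 libraries) or the nucleus accumbens (NAc, 32 libraries), sequenced from total RNA as paired reads of 75 bases. The mice drank saline (6 PFC and 7 NAc libraries) or morphine, and the morphine mice are labelled as taken during chronic drinking (8 and 8), 24 h after it (9 and 9) or 2 weeks after it (7 and 8). Animal ages and the morphine dose are not given in the sources used here. The labels call the cells neurons, but the punches are tissue: the 6 oligodendrocyte markers summed to a median of 6537 CPM (counts scaled to a common library total) in PFC and 9500 in NAc saline libraries, beside 8467 and 4660 for the 7 pan-neuronal markers. In such bulk tissue, fewer cells of a type and less RNA per cell cannot be told apart. The labels do not say that each library is a separate animal, so a p-value here measures the spread between these libraries.

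Gene counts per library ranged from 5182601 to 41532464 (median 29999922) in PFC and from 22387525 to 43963295 (median 32159518) in NAc. In all, 10 libraries stood apart by depth, by their coding share, by region markers or by sex markers. PFC 2 weeks number 10 had the lowest depth of all libraries, and PFC 2 weeks number 13 had 92.5% of its counts in protein-coding genes. The dopamine receptor gene Drd1, a marker of striatal projection neurons, was between 9.75 and 35.3 CPM in NAc saline numbers 2 and 6, NAc 24 h number 23 and NAc chronic number 25. The cortical glutamate transporter gene Slc17a7 reached 626 CPM in NAc 24 h number 24. Both chronic libraries of number 27, labelled female, had the Y-linked Ddx3y at 50.7 and 77.4 CPM with Xist at 0 and 1.02 CPM, and NAc chronic number 28, labelled male, had Xist at 17.9 CPM. Outside these 10, PFC chronic number 31, carried the 5 choroid plexus and ependyma markers at a sum of 3345 CPM, against a median of 14.1 CPM in its group, and NAc 24 h number 20 at 745 CPM against 73.2. Each count below is repeated without the 10 libraries where that changes a call.

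Copies of the members elsewhere in the genome decide how several of them can be read. Segments of mitochondrial DNA that were inserted into nuclear chromosomes are annotated as pseudogenes, and a read that matches both places equally well belongs to neither gene alone. On chromosome 1 (GRCm38, 24611535 to 24616197, minus strand), 7 unprocessed pseudogenes lie side by side and together repeat mitochondrial DNA from within mt-Co1 to within mt-Nd4. Of these, the copies of mt-Nd4l (Gm10222, 294 bases), mt-Nd4 (Gm28439, 876 bases), mt-Co3 (Gm28437, 783 bases), mt-Atp6 (Gm10925, 678 bases) and mt-Co2 (Gm28661, 681 bases) matched the member with 0 mismatches. The copy of mt-Nd3, a complex I subunit, differed at 1 of 345 bases, T3C, counted from 1 at the 5′ end of the member's transcript. Among the nuclear members the pair shown here is Ndufs5, a small intermembrane-space subunit of complex I (chr4:123712710-123718202, minus strand), and BC002163, a processed pseudogene on chromosome 16 (chr16:42955631-42955949, plus strand). They differed at 2 of 319 aligned bases, T173C and A197G, both in the coding part of Ndufs5. The stretches around these 3 bases are shown because every read that can be assigned to a member or its copy by sequence must cover one of them or lie outside the aligned part. They were read from GENCODE M21 transcripts and are written 5′ to 3′ with the differing base in capitals:
mt-Nd3, chrM:9459-9475, plus strand: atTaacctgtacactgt
Gm28438, chr1:24613103-24613119, minus strand: atCaacctgtacactgt
Ndufs5, chr4:123715985-123716013, minus strand: gcagaacagccctaTaagaacgccgctcg
BC002163, chr16:42955697-42955725, plus strand: gcagaacagccctaCaagaacgccgctcg
Ndufs5, chr4:123715961-123715989, minus strand: gctcggtgccacgcAtttgaaaaagagtg
BC002163, chr16:42955721-42955749, plus strand: gctcggtgccacgcGtttgaaaaagagtg
In the first pair the differing base is the third of the gene, at position 9461 of chromosome M and 24613117 of chromosome 1. The aligned part is the first 345 of the 348 bases of mt-Nd3. Only reads that reach the very start of mt-Nd3, or run past its aligned part, thus tell it from the annotated Gm28438. In all, 27 nuclear members had 43 annotated copies and 9 mitochondrial members had 11, where a copy is a match of at least 150 bases at 95% identity or more that covers at least 50% of the copy.

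The levels of the 13 mitochondrial members, compared per kilobase of exon (CPM per kb), lay far apart, and are given beside their overlap with those copies. For each member, every window of 75 bases, the read length, was searched for a perfect match in another annotated gene. In mt-Co3, mt-Co2, mt-Atp6, mt-Nd4l and mt-Nd3, 99.9%, 99.5%, 99.5%, 98.7% and 97.8% of the windows matched a copy. These 5 genes and mt-Atp8 were under 50 CPM per kb in saline libraries of both regions. In PFC and NAc respectively, mt-Nd3 had means of 9.11 and 12.5 CPM per kb, mt-Co2 7.31 and 7.78, mt-Atp6 6.41 and 16.9, mt-Co3 4.82 and 6.32, mt-Atp8 2.89 and 2.83 and mt-Nd4l 2.39 and 2.39. The NAc mean of mt-Atp6 rests on number 3, at 55.96 CPM against 3.03 to 4.81 CPM in the other NAc saline libraries. The means of mt-Nd3 mix libraries with most counts on the gene and libraries with most on its copy, as given below. Mitochondrial mRNAs of a strand are cut from a common long transcript, and these low values are what the table lists, not a measure of how much of the RNA the tissue held. The shortest of them, mt-Atp8, had 0 windows shared with an annotated gene and overlaps mt-Atp6 in the annotation from position 7927 to 7969 of chromosome M. It lies between mt-Co2 and mt-Atp6. On chromosome 1 no piece is annotated between their copies, Gm28661 (from 24614885) and Gm10925 (to 24614651). Sequence outside annotated genes was not searched, so the 0 does not show that mt-Atp8 has no copy.

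The other 7 mitochondrial members had 61.5% of windows shared (mt-Nd4), 39.8% (mt-Co1), 5.71% (mt-Nd2), 1.66% (mt-Nd5) or 0 (mt-Nd1, mt-Cytb and mt-Nd6). Of these, mt-Co1, which encodes the catalytic subunit of cytochrome c oxidase, stood at 8709 ± 1815 CPM per kb in PFC and 7919 ± 724 in NAc (SD, n = 6 and 7 saline libraries). The complex I gene mt-Nd1 followed with 5600 ± 967 and 5286 ± 605 CPM per kb, and mt-Cytb, the cytochrome b of complex III, with 5450 ± 1041 and 6044 ± 798. These 3 genes do not stand in the same order in the regions, and mt-Nd1 and mt-Cytb differed by less than the SD of either in PFC. The complex I genes mt-Nd2, mt-Nd5 and mt-Nd4 had means of 3585, 2011 and 1895 CPM per kb in PFC and 3511, 2132 and 2143 in NAc. The one member encoded on the opposite strand, mt-Nd6, had 91.6 ± 15.1 and 136.8 ± 16.6 CPM per kb. Whether the counting used strand is not given in the sources used here, so reads from mt-Nd6 and from RNA of the other strand cannot be told apart.

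At mt-Nd3 the counts switched between the gene and its chromosome 1 copy from library to library. In PFC saline libraries mt-Nd3 had 0.285, 0.807 and 0.484 CPM in numbers 1, 2 and 3 and 5.26, 5.60 and 6.59 CPM in numbers 5, 6 and 7. The copy, Gm28438, had 15.4, 12.3 and 14.6 CPM in numbers 1 to 3 and 0.27, 0.32 and 0.562 CPM in numbers 5 to 7. Over the 62 libraries the copy was higher in 21 and mt-Nd3 in 41. Of the 30 numbers sequenced in both regions, 29 had the same gene of the pair higher in both, and the exception was number 10, with 10.2 and 10.4 CPM in PFC, the shallowest library. Libraries with the copy higher were numbers 1 to 3 (saline), 16 and 17 (24 h) and 25 to 29 (chronic) in both regions. This makes 3 of 6 PFC and 3 of 7 NAc saline libraries, 5 of 8 and 5 of 8 chronic, 2 of 9 and 2 of 9 at 24 h, and 1 of 7 and 0 of 8 at 2 weeks. In the saline groups these were all of the females and none of the males, so that in saline the switch and the sex cannot be told apart. The sum of both genes had group medians from 5.82 to 10.1 CPM in PFC and from 8.91 to 15.04 CPM in NAc, and the sum itself moved with the switch. In NAc it ran from 14.8 to 21.2 CPM in libraries with the copy higher and from 5.10 to 12.3 CPM in the others, so that values of mt-Nd3 with its copies added still carry the switch.

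Ndufs5 and BC002163 divided their counts in 3 steps. In 25 libraries BC002163 made up 0 to 4.57% of the sum of both genes, in 27 it made up 18.5 to 34.3% and in 10 it made up 46.6 to 55.3%. Ndufs5 itself ranged from 34.5 to 54.8 CPM, from 22.8 to 48.2 CPM and from 13.2 to 30.8 CPM in these 3 sets, while BC002163 ranged from 0 to 2.33, from 5.19 to 18.03 and from 13.8 to 29.9 CPM. The 10 libraries with the largest copy share were the PFC and NAc libraries of numbers 25 to 29, all labelled chronic. Numbers 4 to 7 (saline), 18 to 24 (24 h) and 30 to 32 (chronic) held the middle share, and numbers 1 to 3 (saline), 8 to 15 (2 weeks) and 16 and 17 (24 h) the smallest. Libraries of the same number differed by at most 10.2 percentage points, with a median of 2.18 over 30 numbers. Within the chronic group the share thus took 2 levels by number, and numbers 30 to 32 had the middle share that saline numbers 4 to 7 and 24 h numbers 18 to 24 also had. The comparisons of Ndufs5 below are given with and without the copy's counts added.

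**Figure D1:**
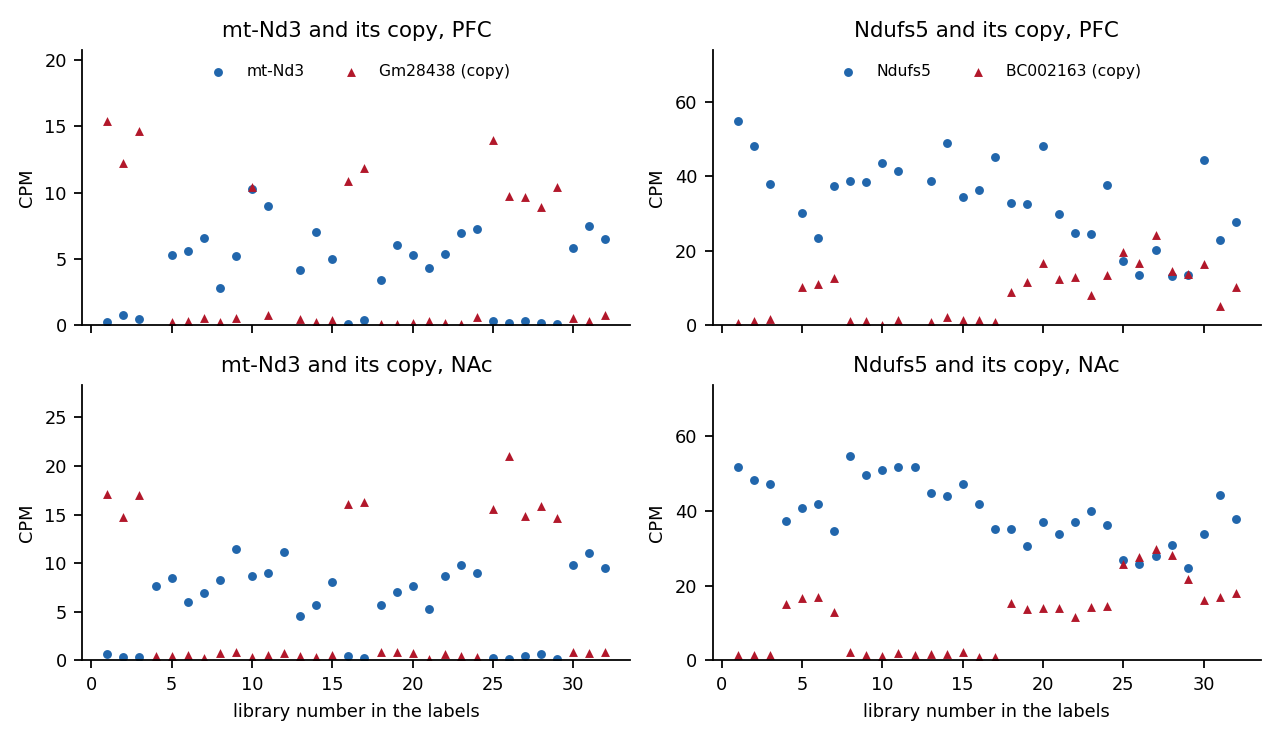
CPM of mt-Nd3 and its copy Gm28438 (left panels) and of Ndufs5 and its copy BC002163 (right panels) against the library number in the labels, for PFC and NAc, with 1 point per gene and library. Numbers 1 to 3, 16, 17 and 25 to 29 carry most counts on Gm28438 in both regions, and numbers 25 to 29 carry BC002163 at about the level of Ndufs5.

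The nuclear members were expressed at lower levels per length than the 6 abundant mitochondrial genes, with a median of 50.3 CPM per kb in PFC and 51.01 in NAc saline libraries. The 5 highest in both regions were subunits of complexes IV and V. Cox8a, a small subunit of complex IV, had 507 ± 70.2 CPM per kb in PFC and 346 ± 18.02 in NAc. The catalytic β and α subunits of ATP synthase, Atp5b and Atp5a1, had 377 ± 22.9 and 362 ± 25.1 in PFC and 294 ± 13.8 and 325 ± 13.6 in NAc. Cox6a1 had 355 ± 47.3 and 251 ± 21.6, and Cox4i1, a regulatory subunit of complex IV, 304 ± 61.3 and 309 ± 17.8. In PFC, from Atp5b through Atp5a1 and Cox6a1 to Cox4i1, each gene differed from the next by less than the larger SD of the pair. Of complex I, Ndufv1, the core subunit of the NADH site, had 93.5 ± 5.15 CPM per kb in PFC, and the iron–sulphur subunit Ndufs1 had 20.8 ± 2.30. The catalytic flavoprotein of complex II, Sdha, had 134.6 ± 6.98 in PFC and 135.1 ± 9.31 in NAc, and its iron–sulphur partner Sdhb had 54.3 and 50.96. Uqcrfs1, the Rieske iron–sulphur protein of complex III, had 79.2 ± 11.3 and 78.9 ± 6.88, and the core protein Uqcrc1 had 74.3 ± 8.62 and 62.6 ± 4.91.

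Where complex IV has a pair of isoforms, the form known from most tissues was the higher one by a wide margin in both regions. The heart and muscle forms Cox6a2, Cox7a1 and Cox8b had means of 8.73, 1.15 and 0.304 CPM per kb in PFC and 2.91, 1.66 and 0.505 in NAc, beside 355 and 251 for Cox6a1, 87.2 and 91.6 for Cox7a2 and 507 and 346 for Cox8a. The lung form Cox4i2 had 2.05 and 1.78 CPM per kb, and the testis form Cox6b2 1.56 and 1.73, beside 178.2 and 192.4 for Cox6b1. Ndufa4l2, a paralogue of Ndufa4 known from hypoxic and mural cells, had 2.80 and 1.74, beside 102.9 and 115.7 for Ndufa4. Cox8c was at 0 in the saline libraries of both regions, and Cox8c in both regions and Cox8b in PFC did not pass the low-count filter of edgeR. Of the 3 genes for the membrane-ring subunit c of ATP synthase, Atp5g3 had 113.9 and 110.7 CPM per kb, Atp5g2 18.96 and 17.42 and Atp5g1 14.78 and 14.95.

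As a share of all gene counts, the 13 mitochondrial members took 2.29 to 6.28% in PFC (median 3.16%) and 3.09 to 5.22% in NAc (median 3.83%). The 85 nuclear members took 0.783 to 1.34% in PFC (median 0.996%) and 0.913 to 1.21% in NAc (median 1.07%). The ratio of the mitochondrial to the nuclear share ran from 1.80 to 5.20 in PFC and from 2.61 to 4.72 in NAc, and these ranges overlapped. In PFC the median nuclear share was 1.05% in saline, 0.901% in chronic, 1.02% at 24 h and 1.003% at 2 weeks, and the mitochondrial medians were 3.36%, 2.86%, 3.00% and 3.55%. In NAc the nuclear medians were 1.13%, 1.06%, 1.03% and 1.15%, and the mitochondrial medians 3.77%, 3.72%, 3.78% and 4.43%, in the same order of stages. All groups of a region overlapped in both shares. Shares were described and not tested, since a sum over members has no test here. The highest mitochondrial share of all, 6.28%, was in the shallow PFC 2 weeks number 10, whose ratio of 5.20 was also the highest.

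**Figure D2:**
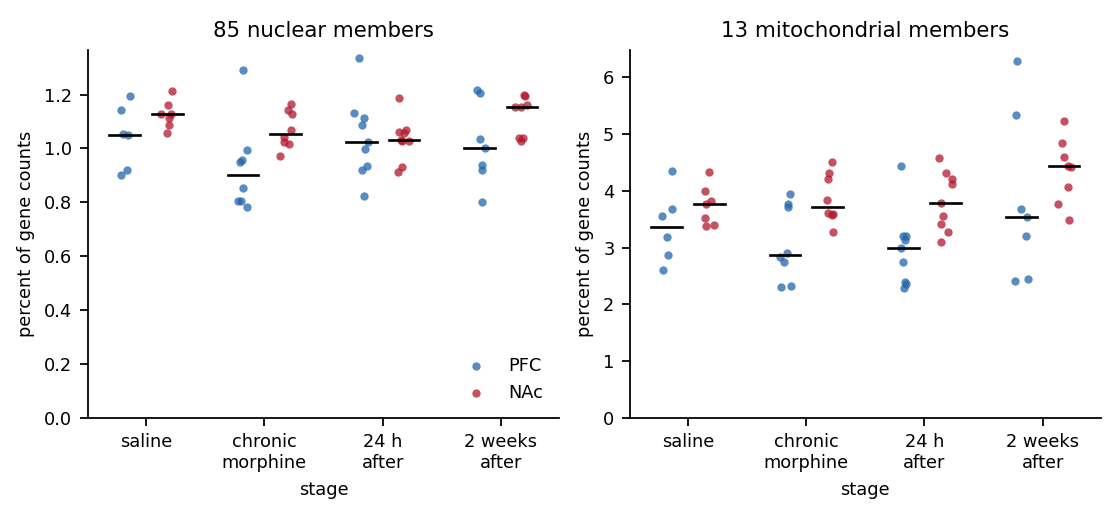
Share of all gene counts taken by the 85 nuclear and the 13 mitochondrial members in each library, in percent, by stage for PFC and NAc, with 1 point per library and a bar at each group's median. Nuclear shares lie between 0.783 and 1.34% and mitochondrial shares between 2.29 and 6.28%, and the groups of a region overlap.

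Between the regions, the nuclear members differed in both directions in saline mice. Expression in NAc against PFC was tested with edgeR's quasi-likelihood test over 19266 genes with Benjamini-Hochberg adjustment, and a member is called at an adjusted p under 0.05. Of the 84 nuclear members tested, 19 were called, 11 higher and 8 lower in NAc, against a background of 35.9% of all genes called (17.4% higher and 18.5% lower). At an unadjusted p under 0.05 it was 30 of 84, against 44.1% of all genes. The median log2 fold change of the nuclear members was 0.13, that of the 13 mitochondrial members 0.08 and that of all genes 0.05. With median-of-ratios scaling in place of TMM, 17 of 24 called nuclear members were higher, and with DESeq2 18 of 25. Without the 10 libraries that stood apart, 20 were called, 11 of them higher. By complex, 8 of 36 members of complex I, 0 of 4 of complex II, 2 of 8 of complex III, 4 of 19 of complex IV and 5 of 17 of complex V were called. The saline ranges of 9 of the 19, and of mt-Nd6, did not overlap between the regions, in a comparison that called 35.9% of all genes. How many of all genes had ranges that did not overlap was not counted.

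Among the members lower in NAc, Cox6a2, the heart and muscle form of a complex IV subunit, showed the largest change of the called members. It had a lowest, median and highest value of 3.47, 6.13 and 7.99 CPM in PFC saline libraries and of 1.39, 1.79 and 3.24 CPM in NAc. The groups did not overlap, and the log2 fold change was −1.54 ± 0.29 (SE, edgeR adjusted p = 2.5e-05). Its partner form Cox6a1 had 215, 240 and 309 CPM in PFC and 156.8, 176.1 and 198.7 in NAc, a log2 fold change of −0.50 ± 0.13 (edgeR adjusted p = 0.00112). Cox8a ran from 269 to 390 CPM in PFC, median 301, and from 201 to 233 in NAc, median 217 (−0.55 ± 0.12, edgeR adjusted p = 0.000242). All NAc values of these 3 complex IV genes thus lay under all PFC values. Atp5b, the catalytic β subunit, had 1409, 1618 and 1696 CPM in PFC and 1157, 1246 and 1316 in NAc (−0.36 ± 0.08, edgeR adjusted p = 0.000194). The δ subunit of the ATP synthase stalk, Atp5d, had 172.6, 197.3 and 219.3 CPM in PFC and 122.8, 134.5 and 148.3 in NAc (−0.52 ± 0.12). Ndufv1, which binds NADH and flavin, had 227, 245 and 269 CPM in PFC and 165.6, 191.2 and 204.8 in NAc (−0.39 ± 0.10), and the accessory subunit Ndufa10 149.2, 156.8 and 163.3 against 116.96, 126.2 and 147.8 (−0.28 ± 0.08). Their ranges did not overlap either. Uqcrc1, the core protein of complex III, was at −0.25 ± 0.10 with overlapping ranges.

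Of the 11 members higher in NAc, 6 belong to complex I, 1 to complex III, 1 to complex IV and 3 to complex V. Atp5l, subunit g of the membrane part of ATP synthase, had 16.2, 23.6 and 27.6 CPM in PFC and 32.2, 37.2 and 38.7 in NAc (log2 fold change 0.64 ± 0.16, edgeR adjusted p = 0.00123). Atp5j2, subunit f of the same part, had 59.8, 78.4 and 105.6 CPM in PFC and 108.1, 118.2 and 132.1 in NAc (0.54 ± 0.15). For both, each NAc library lay above each PFC library. The other 9 overlapped between the regions, with log2 fold changes of 0.62 ± 0.19 for Ndufb4, 0.55 ± 0.17 for Atp5mpl, 0.49 ± 0.14 for Ndufa6, 0.45 ± 0.15 for Ndufs4, 0.44 ± 0.17 for Cox7b, 0.43 ± 0.12 for Ndufb2, 0.35 ± 0.13 for Ndufab1, 0.32 ± 0.13 for Uqcrb and 0.30 ± 0.12 for Ndufv2. Of these, Ndufab1 is the mitochondrial acyl carrier protein and Ndufv2 carries an iron–sulphur cluster of the NADH-oxidising arm. Core subunits with no call had values of −0.00 ± 0.07 for Sdha, 0.10 ± 0.07 for Ndufs1, −0.02 ± 0.11 for Uqcrfs1, 0.02 ± 0.16 for Cox4i1, −0.27 ± 0.12 for Cox5a, −0.10 ± 0.16 for Cox6c and −0.17 ± 0.08 for Atp5a1. Without the 10 libraries that stood apart, Cox5a was called (−0.33, edgeR adjusted p = 0.0346), as were Atp5e, Ndufa7 and Uqcr11, and Cox7b, Ndufab1 and Ndufv2 were not.

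Of the mitochondrial members, 2 of 13 were called between the regions, mt-Nd6 and mt-Atp6. The complex I gene mt-Nd6 had 35.3, 48.97 and 56.1 CPM in PFC saline libraries and 57.9, 70.1 and 86.03 in NAc, with no overlap (log2 fold change 0.57 ± 0.17, edgeR adjusted p = 0.00722). It was between 0.52 and 0.67 whichever saline library was left out. For mt-Atp6, the subunit a of the ATP synthase proton channel, the call rested on 1 library. NAc saline number 3 had 55.96 CPM, while the other 6 NAc saline libraries had 3.03 to 4.81 and the PFC saline libraries 3.15 to 5.70. The log2 fold change was 1.15 ± 0.33 (edgeR adjusted p = 0.0046) with that library and −0.14 (edgeR adjusted p = 0.659) without it.

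**Figure D3:**
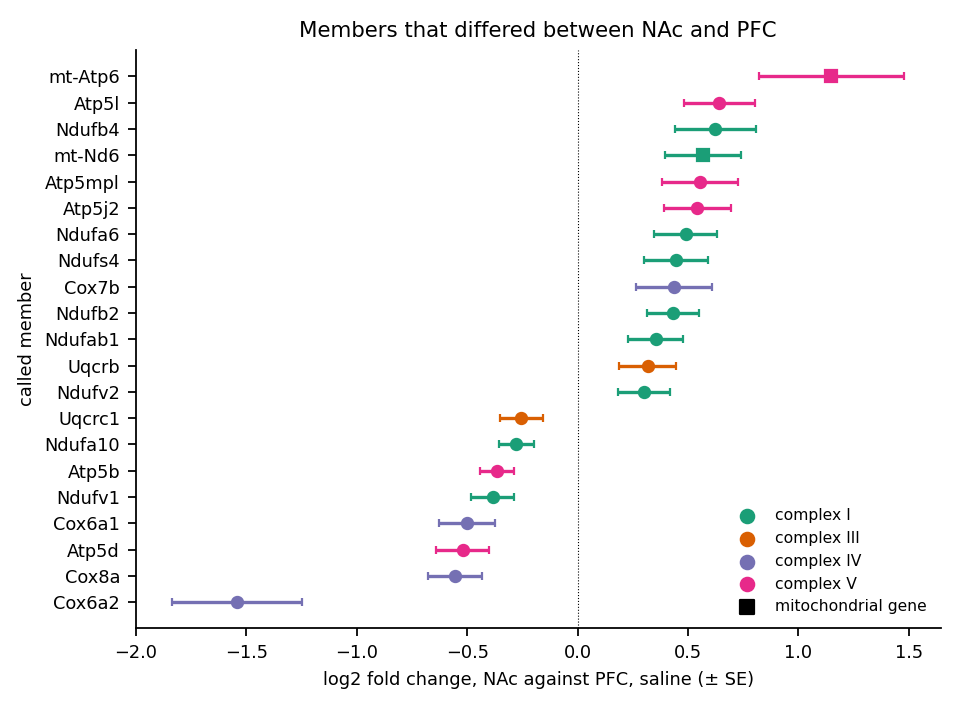
Log2 fold change of NAc against PFC in saline libraries, with its SE, for each member called at an adjusted p under 0.05. The 11 nuclear members to the right of 0 run from 0.30 to 0.64 and the 8 to the left from −0.25 to −1.54, and mt-Nd6 (0.57) and mt-Atp6 (1.15, resting on 1 library) are the mitochondrial ones.

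Markers of projection neurons differed more between the regions than the members did. All 8 striatal projection neuron markers were higher in NAc, with median sums of 3030 against 214 CPM and a median log2 fold change of 3.999. All 6 cortical excitatory neuron markers were lower, with 58.7 against 2578 CPM, as were 6 of 6 endothelial and mural markers (185.1 against 382.9 CPM) and 5 of 7 pan-neuronal ones (4660 against 8467 CPM). Their part in the differences of the members was not tested.

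Lists of genes around the pathway, chosen with earlier results of these data known, are given beside the share over all genes. In this comparison 35.9% of all genes were called, 17.4% higher and 18.5% lower in NAc. A list with shares near these is not set apart by its calls. Of 16 glycolysis genes, 13 were lower in NAc and 0 higher, with a median log2 fold change of −0.39. Examples are Pfkp (−0.56), a form of the committed enzyme phosphofructokinase, and Hk1 (−0.52), the brain hexokinase. Of 13 citric acid cycle genes, 5 were lower and 0 higher, citrate synthase, Cs (−0.28), among them. In a list of 12 carriers, porins and antioxidant genes, 4 were lower and 0 higher. Of 43 assembly factors, 1 was higher and 2 were lower. Of 24 regulators of mitochondrial gene expression, 8 were higher and 1 lower, the higher ones including Lrpprc (0.63), which stabilises mitochondrial mRNA, and the lower one being Esrra (−0.56), a nuclear receptor that drives genes of respiration. Of 88 cytosolic ribosomal protein genes tested, 30 were higher and 0 lower, with a median of 0.33.

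During chronic morphine drinking, the nuclear members in PFC lay slightly under saline without passing the test. None of the 83 tested was called by edgeR, against 0.417% of 17966 genes, and 1 of 83 had an unadjusted p under 0.05, against 7.91% of all genes. DESeq2 called 1, Ndufs5, as did edgeR without the 10 libraries that stood apart, where 8 of 84 had an unadjusted p under 0.05. The median log2 fold change was −0.16, with 79 of 83 below 0, while the median of all genes was 0.01. Medians by complex were −0.16 for I, −0.17 for II, −0.15 for III, −0.20 for IV and −0.14 for V. Core subunits gave values such as −0.11 for Atp5a1, −0.18 for Ndufv1, −0.03 for Sdha and −0.30 for Cox6c, where the median SE of a nuclear member was 0.16. Cytosolic ribosomal protein genes moved with them: all 88 were below 0, with a median of −0.39, and 28 had an unadjusted p under 0.05, none of which passed the adjustment. Their part in the result was not tested. The 13 mitochondrial members had a median of −0.11, with 12 below 0, 0 called by edgeR or DESeq2 and 0 at an unadjusted p under 0.05.

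Ndufs5 was the nuclear member with the smallest p in this comparison. It had a lowest, median and highest value of 23.5, 37.7 and 54.8 CPM in PFC saline libraries and of 13.2, 18.8 and 44.5 CPM in chronic ones. The groups overlapped, since number 30 stood at 44.5 CPM and the other 7 chronic libraries between 13.2 and 27.8. The log2 fold change was −0.89 ± 0.21 (edgeR adjusted p = 0.0551) and −1.05 (edgeR adjusted p = 0.00242) without number 30. Without the 10 libraries that stood apart it was −0.96 (edgeR adjusted p = 0.0351). With the counts of BC002163 added it was −0.28 ± 0.16 (edgeR adjusted p = 0.736), while BC002163 alone rose by 2.05 ± 0.44 (edgeR adjusted p = 0.0269).

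At 24 h the PFC nuclear members were on the other side of 0, with 60 of 83 above it and a median of 0.05. None was called by edgeR or DESeq2, against 0.0779% of all genes, and 0 had an unadjusted p under 0.05, against 3.01%. The mitochondrial members had a median of −0.15, with 3 of 13 above 0, and again 0 were called by either tool and 0 had an unadjusted p under 0.05. The nuclear member with the smallest p was Cox7a2l, a supercomplex assembly subunit with its own processed pseudogene, at 0.26 ± 0.17 (edgeR adjusted p = 1.0). That copy, Gm6969, made up 10.6 to 20.4% of the sum of both genes in PFC saline libraries and 4.54 to 23.5% at 24 h. At 2 weeks the nuclear median was −0.05, equal to that of all genes, with 31 of 83 above 0, and the mitochondrial median was 0.20, with 11 of 13 above 0. Neither set had a call by edgeR or DESeq2, against 0.00557% of all genes, and 0 nuclear members and 1 mitochondrial one had an unadjusted p under 0.05, against 5.04%. The nuclear member with the smallest p was Ndufa6, an accessory subunit of complex I (−0.35, edgeR adjusted p = 0.947). The mitochondrial one was mt-Nd3 (1.80 ± 0.73), whose value became −0.25 with its copies added. Without the 10 libraries that stood apart, 12 of 84 nuclear members were above 0 at 2 weeks, with a median of −0.10.

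In NAc during chronic morphine drinking, Ndufs5 alone was called among 84 nuclear members, against 1.69% of 18382 genes. At an unadjusted p under 0.05 it was 3 of 84, with Cox6b2 and Ndufs7 beside it, against 15.2% of all genes. The nuclear median was −0.01, as was that of all genes, and complex medians were between −0.02 and 0.00. The nuclear members of NAc thus stood closer to 0 than those of PFC, but the difference between the regions passed the test for none of them. Ndufs5 had 34.7, 41.9 and 51.6 CPM in NAc saline libraries and 24.8, 29.3 and 44.3 CPM in chronic ones, with overlapping ranges. It fell by 0.53 ± 0.08 on the log2 scale (edgeR adjusted p = 0.00127) and was between −0.59 and −0.48 whichever NAc library was left out. With BC002163 added, the sums ran from 47.7 to 58.95 CPM in saline and from 46.4 to 61.2 in chronic libraries, and the log2 fold change was 0.05 ± 0.07 (edgeR adjusted p = 0.784). BC002163 alone rose by 2.31 ± 0.39 (edgeR adjusted p = 0.00201). Without the 10 libraries that stood apart, the fall of Ndufs5 was −0.52 with an adjusted p of 0.182.

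The mitochondrial members of NAc had no call in the chronic group by edgeR, but 2 by DESeq2, which called 664 of 28836 genes. At an unadjusted p under 0.05 it was 3 of 13, against 15.2% of all genes. Their median log2 fold change was 0.07, with 9 of 13 above 0, and −0.01 with 6 of 13 above 0 without number 27. The 2 that DESeq2 called were mt-Nd6 (0.34, adjusted p = 0.0204) and mt-Atp6 (−1.25, adjusted p = 0.0235), the latter in a comparison with saline number 3. In edgeR mt-Nd6 was at 0.33 ± 0.09 (adjusted p = 0.0565) and mt-Nd5 at 0.28 ± 0.10 (adjusted p = 0.139). By library, mt-Nd6 had 57.9, 70.1 and 86.03 CPM in saline and 71.2, 88.9 and 108.3 in chronic libraries, which overlapped.

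At 24 h the NAc nuclear members lay below saline: 80 of 84 had a log2 fold change under 0, with a median of −0.11 against −0.01 for all genes. Medians by complex were −0.12 for I, −0.08 for II, −0.10 for III, −0.11 for IV and −0.11 for V. All 36 members of complex I were below 0, while complex IV held the 4 members above 0 and had 0 of 19 at an unadjusted p under 0.05. Of the 84, 15 had an unadjusted p under 0.05, 11 of them in complex I, against 12.1% of all genes. None passed the adjustment in edgeR or DESeq2, against 0.163% of all genes in edgeR. Ndufs7, the iron–sulphur subunit next to the quinone site, had 78.9, 85.6 and 91.7 CPM in saline and 72.04, 75.85 and 80.04 at 24 h (−0.18 ± 0.06, edgeR adjusted p = 0.189), and the ranges met between 78.94 and 80.04 CPM. Ndufs5 was at −0.28 ± 0.08 (edgeR adjusted p = 0.157), and at −0.14 ± 0.07 with its copy added. The mitochondrial members had a median of 0.07 with 8 of 13 above 0, and 5 had an unadjusted p under 0.05, or 2 without the 10 libraries that stood apart. None was called by edgeR and 1, mt-Atp6, by DESeq2, again against a saline group with number 3. Ribosomal protein genes had a median of −0.05, with 14 of 88 above 0.

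At 2 weeks both sets lay above saline in NAc, the mitochondrial members further than the nuclear ones. The 13 mitochondrial members had a median of 0.28, with 12 above 0, and 9 had an unadjusted p under 0.05, against 6.44% of all genes. Without the 10 libraries that stood apart the median was 0.20 and 6 had such a p. With the counts of copies added the median was 0.26, with 11 of 13 above 0, and 7 had such a p. The largest change was that of mt-Nd3 (2.27), whose direction turned with its copies added. None of the 13 was called by edgeR, against 0.00544% of all genes, and 2 were called by DESeq2, which called 41 of 28836 genes. The 5 abundant genes mt-Co1, mt-Cytb, mt-Nd5, mt-Nd4 and mt-Nd2 were at 0.32, 0.30, 0.30, 0.28 and 0.26 and mt-Nd1 at 0.14. The DESeq2 calls were mt-Nd6 (0.43, adjusted p = 0.00756) and mt-Nd4l (1.34, adjusted p = 0.00072). For mt-Nd6 the 8 libraries had 86.5, 94.6 and 107.98 CPM as lowest, median and highest. All lay above the 7 saline libraries, but narrowly, since the highest of these had 86.03 CPM. The other 12 mitochondrial and all 85 nuclear members overlapped with saline at this stage, and the share over all genes was not counted. In edgeR mt-Nd6 was at 0.43 ± 0.09 (adjusted p = 0.135). The low-count mt-Nd4l had 0.351, 0.785 and 1.43 CPM in saline and 1.14, 1.64 and 2.25 CPM at 2 weeks (edgeR 1.33 ± 0.25, adjusted p = 0.0571), and 0.56 with its copies added. In saline, mt-Nd4l had 0.351 to 0.400 CPM in numbers 1 to 3, where Gm28438 was above mt-Nd3, and 0.785 to 1.43 CPM in numbers 4 to 7. Its copy Gm10222 had 0.910 to 1.365 CPM in numbers 1 to 3 and 0.441 to 0.602 CPM in numbers 4 to 7. Thus mt-Nd4l divided by number in saline as mt-Nd3 did, and no library at 2 weeks had Gm28438 higher. The nuclear members had a median of 0.05 with 75 of 84 above 0, and 3 had an unadjusted p under 0.05. None was called by edgeR or DESeq2, and the smallest p belonged to Cox7a2l (0.29, edgeR adjusted p = 0.588), which was at 0.18 with its copies added. Other lists lay on the same side of 0: 76 of 88 ribosomal protein genes were above it, with a median of 0.05, 16 of 16 glycolysis genes (0.07), 12 of 13 citric acid cycle genes (0.06) and 33 of 43 assembly factors (0.045). Mitochondrial ribosomal RNA, which is no member, took a median of 0.950% of counts at 2 weeks and 0.836% in saline. Reads that aligned to more than 1 place took a median of 16.3% and 15.3% of the table's totals, and their part in the result was not tested.

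**Figure D4:**
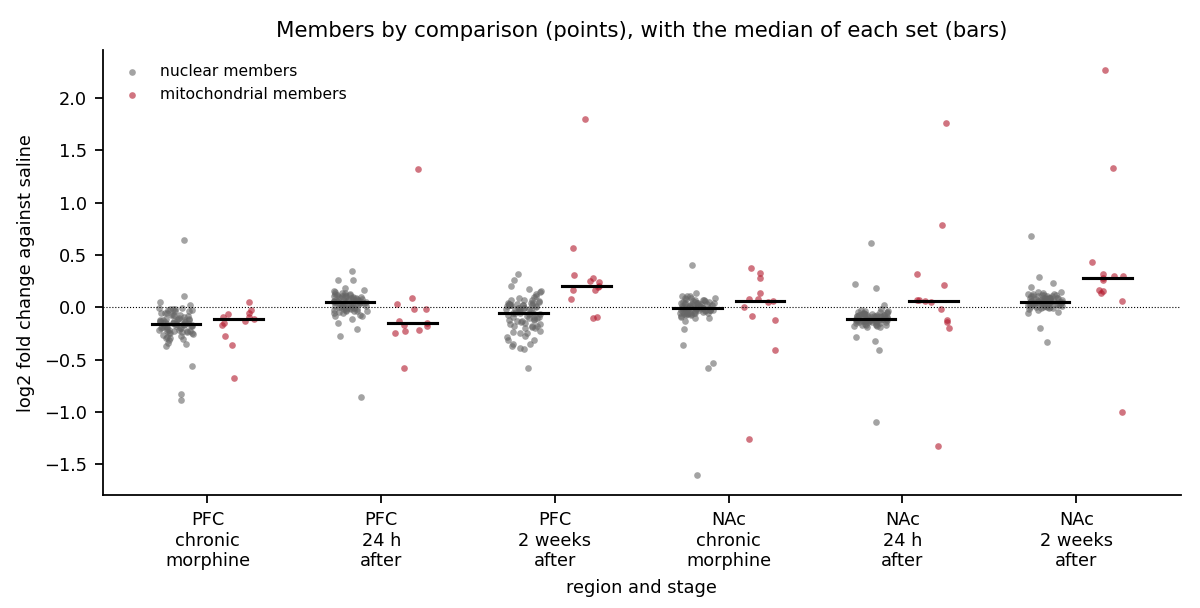
Log2 fold change against saline of each tested member (points) and the median of each set (bars), for nuclear and mitochondrial members, by region and stage. Nuclear medians run from −0.16 (PFC chronic) to 0.05 (NAc 2 weeks) and mitochondrial medians from −0.15 (PFC 24 h) to 0.28 (NAc 2 weeks). The most distant points are low-count genes such as Cox8b (−1.60 in NAc chronic) and mt-Nd3 (2.27 in NAc at 2 weeks). The counts of mt-Nd3 are divided with a copy by library number, and this value turned in direction with its copies added.

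Whether a response differed between the regions was tested as an interaction over all 62 libraries. No member was called by edgeR or DESeq2 in the chronic, 24 h or 2 weeks comparison, against 0.0311%, 0.0208% and 0.00519% of all genes. Unadjusted, 0, 0 and 1 of 84 nuclear and 1, 1 and 1 of 13 mitochondrial members had a p under 0.05, against 4.26%, 3.52% and 4.54% of all genes. The nuclear medians of NAc minus PFC were 0.17 in the chronic group, with 76 of 84 above 0, −0.14 at 24 h, with 7 above 0, and 0.13 at 2 weeks, with 69 above 0. The mitochondrial medians were 0.21, 0.26 and 0.08. The nuclear members with the smallest p were Cox6a2 in the chronic group (0.71, edgeR adjusted p = 1.0), Ndufs7 at 24 h (−0.28, edgeR adjusted p = 1.0) and Ndufa6 at 2 weeks (0.47, edgeR adjusted p = 0.972), of which only Ndufa6 had an unadjusted p under 0.05. These 3 tests share the saline libraries of both regions with the comparisons within each region.

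No member was called between females and males by edgeR in either region, against 0.0334% of all genes in PFC and 0.0598% in NAc. In PFC 4 of 83 nuclear and 1 of 13 mitochondrial members had an unadjusted p under 0.05, against 4.54% of all genes, and DESeq2 called 0. Without number 27, whose sex markers go against its label, 0 nuclear members had such a p in PFC. In NAc it was 3 of 84 and 3 of 13, against 4.79%, and DESeq2 called 1, mt-Nd3, among 15 of 28836 genes. The nuclear median of females against males was 0.08 in PFC, with 63 of 83 above 0, and 0.00 in NAc, with 44 of 84 above 0. In PFC the nuclear member with the smallest p was Ndufc1, a small subunit of complex I (0.27 ± 0.12, edgeR adjusted p = 0.946). In NAc it was Atp5e, the ε subunit of ATP synthase (0.13, edgeR adjusted p = 0.918). For mt-Nd3 the log2 fold change was −1.76 ± 0.50 in PFC and −2.01 ± 0.46 in NAc (edgeR adjusted p = 0.946 and 0.159). With its copies added it became 0.34 in PFC and 0.26 in NAc.

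The test of sex by stage called no member by edgeR, against 0.0% of all genes in PFC and 0.0544% in NAc. At an unadjusted p under 0.05 it was 3 of 83 nuclear members in PFC, against 4.71% of all genes, and 6 of 84 in NAc, against 9.56%, with 1 and 3 of 13 mitochondrial members. Without number 27 it was 5 of 84 nuclear members in PFC and 3 of 84 in NAc, and the calls over all genes in NAc went from 10 to 0. In PFC the smallest p of a nuclear member was that of Atp5g1, a subunit c gene (edgeR p = 0.00356, adjusted p = 0.569). In NAc it was that of Ndufs5 (edgeR p = 0.00117, adjusted p = 0.255). DESeq2 called 0 members in PFC and 2 in NAc, among 89 of 28836 genes. They were Ndufs5 (adjusted p = 0.0482) and mt-Nd3 (adjusted p = 0.0167), whose counts are both divided with a copy by number.

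Few genes of the other lists were called in the comparisons with saline. In NAc chronic libraries, where 1.69% of all genes were called, 1 of 43 assembly factors rose (Ttc19, of complex III), 1 of 24 regulators fell (Pprc1, a coactivator of the nuclear genes) and 3 of 88 ribosomal protein genes fell. At an unadjusted p under 0.05 it was 11 of 43 assembly factors, with a median of 0.07, and 38 of 88 ribosomal protein genes, with a median of −0.14 and 8 above 0, against 15.2% of all genes. No gene of the citric acid cycle, glycolysis or carrier lists was called by edgeR in any comparison of a morphine stage with saline. None of the cell type marker lists had a call in those comparisons in edgeR, but several lay to a side of 0. In NAc all 8 striatal projection neuron markers were above 0 in chronic, 24 h and 2 weeks libraries, with medians of 0.56, 0.31 and 0.40. At each stage 0 of 8 had an unadjusted p under 0.05. Their median sums were 4416, 3421 and 3197 CPM at these stages and 3030 CPM in saline. The 3 comparisons share the saline libraries, which include the low-Drd1 numbers 2 and 6 and had a lowest sum of 387 CPM. Low Drd1 was also seen in 24 h number 23 and chronic number 25. Of the 5 microglia markers, 5, 5 and 4 were above 0 in NAc, with medians of 0.20, 0.16 and 0.21. In PFC all 6 oligodendrocyte markers were below 0 at 24 h, with a median of −0.31 and 3 at an unadjusted p under 0.05, and at 2 weeks, with a median of −0.21. The 5 choroid plexus and ependyma markers were above 0 in PFC chronic libraries, with a median of 1.75. Number 31 of that group stood at a sum of 3345 CPM, while the group's median sum was 14.1 CPM, against 16.1 CPM in saline. The values thus do not show a rise across the group. The part of these markers in the values of the members was not tested.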

How the data were processed

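The 62 mouse libraries of the series were used, and its 189 rat samples were not. The authors deposited 1 table of whole-number counts per gene, unnormalised. The submitters' processing notes name FastQC, cutadapt, Trimmomatic, STAR, HISAT2, RSEM and the builds GRCm38 and Rnor_6.0, with no versions or roles. Which of these made the mouse counts, and whether counting used strand, is not given in the sources used here. Closing rows for reads in no gene, ambiguous or not uniquely aligned stayed out of library sizes and tests. Reads with more than 1 alignment took 11.2% to 17.5% of the totals, reads in no gene 4.50% to 8.30%, ambiguous reads 0.612% to 0.868% and unaligned reads 0.479% to 21.1%.

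Counts were tested with edgeR 4.0.16 in R 4.3.3 (TMM scaling, low-count filter, quasi-likelihood test), with stages compared within a region and sex as a term, and both regions together for NAc against PFC. P-values were adjusted by Benjamini-Hochberg over all genes tested, 17966 in PFC, 18382 in NAc and 19266 in both. The alternatives were DESeq2 1.42.0, other scalings, no filter, libraries left out and a replicate block. Adding the counts of annotated copies, and leaving out the 10 libraries that stand apart, were chosen after seeing the data. The scripts were tested on simulated data. Copies and sequences come from GENCODE M21 transcripts. Named genes are all mitochondrial members, core subunits of each complex, paralogues with a known tissue form and, in each comparison, up to 3 called nuclear members in each direction by size of change, or the smallest p where none was called. The other called members between the regions, Cox6b2 and Ndufs7 in NAc, and the genes named from other lists were chosen after their values were seen. Members and lists were chosen with earlier results of these data known. A planned search of promoters for motifs was not made.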

Additional observations from a re-analysis of the deposited data

Results flagged for a closer look

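In groups of 4 to 10 libraries, a value was singled out where its gap to the nearest other library, divided by the range of the group, passed Dixon's 95% critical value. This happened 16 times among 160 groups looked at, and chance alone gives about 1 in 20.

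Of these values, 5 belong to PFC 24 h number 19, where 4 abundant mitochondrial genes and their share stood above the other libraries of the group. Their share was 4.44% of gene counts against 2.29 to 3.2004%. In CPM, mt-Co1 was at 17760 against 9523 to 12600, mt-Cytb at 7697 against 4405 to 5839, mt-Nd1 at 7291 against 3261 to 5086 and mt-Nd2 at 4964 against 2335 to 3486. PFC chronic number 30 had a nuclear share of 1.29% against 0.783 to 0.993% and Ndufs5 at 44.5 CPM against 13.2 to 27.8. PFC saline number 2 had a ratio of mitochondrial to nuclear share of 2.28 against 3.18 to 3.63.

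The shallow PFC 2 weeks number 10 had Cox6a2 at 18.5 CPM against 3.84 to 7.75, Gm28438 at 10.4 CPM against 0.236 to 0.787 and mt-Atp8 at 1.55 CPM against 0.236 to 0.630. NAc saline number 3 had mt-Atp6 at 55.96 CPM against 3.03 to 4.81. NAc saline number 5 had mt-Nd1 at 6196 CPM against 4543 to 5203. The remaining values were low counts: mt-Co3 at 6.96 CPM in PFC saline number 1 (others 2.68 to 3.51), mt-Nd4l at 1.63 CPM in PFC chronic number 31 (0.274 to 0.814) and mt-Atp8 at 0.190 CPM in NAc 2 weeks number 13 (0.567 to 0.878).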

How the results depend on the processing

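Counts of called members were small, so single calls decide most changes. In PFC chronic against saline the nuclear count of 0 became 1 with DESeq2, without the low-count filter and without the libraries that stand apart, and 0 to 1 when each library was left out. In NAc chronic the nuclear count of 1 became 0 with copies summed and 0 without the libraries that stand apart, and 1 to 2 leaving out each library. With DESeq2 the mitochondrial count in NAc was 2 in chronic, 1 at 24 h, 2 at 2 weeks and 1 between the sexes, and in sex by stage 1 nuclear and 1 mitochondrial member were called, where edgeR called 0 in each. Leaving out each library gave 0 to 1 mitochondrial calls in each of the 3 NAc stages. For saline NAc against PFC the nuclear count ran from 13 to 22 and the mitochondrial one from 1 to 3.

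With copies summed, direction turned for mt-Nd3 (−0.253 in PFC at 2 weeks, 0.343 in PFC by sex, −0.282 in NAc at 24 h, −0.315 in NAc at 2 weeks, 0.258 in NAc by sex), for Ndufs5 (0.054 in NAc chronic, −0.024 in NAc at 2 weeks) and for mt-Nd4l (0.074 in NAc by sex). Leaving out each saline library, mt-Atp6 between regions ran from −0.139 (without NAc number 3) to 1.431 (without NAc number 2). The sum holds the copy's counts by construction. Median-of-ratios scaling turned the nuclear median in NAc chronic from −0.01 to 0.00.

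Library numbers recur in both regions. Over 30 pairs the correlation of deviations was 0.01 to 0.22, median 0.07, and over 0.1 in 5. The best match was the own number in 14 of 30. Same-numbered libraries also had the same gene of mt-Nd3 and Gm28438 higher in 29 of 30. Their BC002163 shares differed by a median of 2.18 percentage points, and both number 27 libraries had sex markers against their label. Whether a number stands for a single animal was not tested, and the main tests treat its libraries as separate. With the number as a replicate block, saline NAc against PFC called 17 nuclear and 1 mitochondrial member. Cox7b, Ndufab1, Ndufv2, Uqcrb and mt-Atp6 were then not called, while Atp5e and Uqcrh were. In the tests of whether a response differed between the regions, the fit with this block also called no member. The depth of PFC number 10 and the low counts of 6 mitochondrial genes limit the values of that library and those genes.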
